A study of Mus musculus with 18 samples.

Results

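Calcium cycling of the heart muscle cell was followed through 10 genes chosen by name for their roles in release of calcium from the sarcoplasmic reticulum (Ryr2, Trdn, Casq2, Jph2, Hrc and Asph), its return there (Atp2a2, Pln and Sln) and its exchange across the cell membrane (Slc8a1). They are 10 of the 46983 gene symbols in the count table, and the rule that names them uses no measured value. The genes were, however, chosen with earlier results of these data known, so the shares that pass below are not those of a blind choice. Of the 10, 9 had enough counts to be tested in each comparison. The tenth, Sln, was listed at 0 in all 18 libraries.

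RNA came from hearts of adult mice that were 8 to 10 weeks old at surgery. They had either a coronary artery (the left anterior descending) tied off, which causes a myocardial infarction, or a sham operation, and the RNA was collected 6 weeks later. The mice were controls, called wild type in the series description, or Salv cKO, a conditional knockout of Salvador, the scaffold protein of the Hippo kinases, whose gene is Sav1. There were 6 groups of 3 libraries: whole-heart total RNA of infarcted control and infarcted Salv cKO hearts, and cardiomyocyte RNA obtained by translating ribosome affinity purification (TRAP) from infarcted control, infarcted Salv cKO, sham control and sham Salv cKO hearts. TRAP pulls down ribosomes together with the RNA they carry, so its levels are those of ribosome-bound RNA. All 6 groups share the age class and the interval after surgery, and total RNA was sequenced only after infarction. The Cre driver of the knockout, the ribosome tag, its driver and the number of animals behind each library were not given in the sources used here. The p-values therefore speak of how these libraries vary among themselves, which may be technical.

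In each heartbeat calcium that enters a cardiomyocyte through the transverse tubules opens ryanodine receptors on the sarcoplasmic reticulum, and the calcium they release starts contraction. Relaxation follows when the pump SERCA returns calcium to the reticulum, under the brake of phospholamban, and when the sodium-calcium exchanger moves calcium out of the cell. In failing and remodelled hearts this cycle is known to be altered at several of these steps.

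Library totals ran from 3240871 to 24135877 counts, the lowest of them in sham TRAP RNA, and the 10 genes held 1.39% to 2.96% of each library. The 4 Y-linked genes summed to 567 counts in library 2 of the sham controls and to 659 in the library labelled sham Salv cKO 3, against at most 7 elsewhere. Sav1 stood at 5.53 to 6.81 CPM (counts scaled to a common library size, here the plain library total) in sham control TRAP RNA. In sham Salv cKO it stood at 2.16, 0.877 and 7.50 CPM, so that the library labelled sham Salv cKO 3 lay above all 3 sham controls. After infarction the genotypes overlapped for Sav1, with 4.39 to 6.86 CPM in control against 3.92 to 6.43 CPM in Salv cKO TRAP RNA. In total RNA the ranges, 22.3 to 33.5 CPM for control and 16.4 to 22.8 CPM for Salv cKO, overlapped slightly. In raw counts, sham Salv cKO libraries 1, 2 and 3 held 7, 3 and 34 for Sav1, and sham control libraries 24, 22 and 88. Counts were read per gene and the deleted part was not read apart, so these values do not check the genotype labels. The reason for them was not tested. Where omission of the libraries with Y chromosome counts changed a call among the 10 genes, this is stated and a second value is given. The same is done for several results that did not pass. For the genes whose call changed for infarction in control, the second value is that without sham control library 2 alone.

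The 10 cardiomyocyte markers were all detected in every group. In infarcted hearts 8 of them were higher in TRAP than in total RNA and 2 were lower, and of 8 fibroblast and matrix markers 6 were lower and 0 higher (edgeR, adjusted p below 0.05). Of 8 endothelial markers 6 were lower and 2 higher in TRAP RNA, of 9 leukocyte markers 4 and 2, and of 7 smooth muscle and mural markers 3 and 1. Of all 13267 genes tested in this comparison 39.9% were lower and 34.4% higher in TRAP RNA. In these bulk samples, fewer cells of a type and less RNA per cell cannot be told apart.

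Promoter sequence is shown for the genes that passed the infarction comparison in Salv cKO TRAP RNA and have an entry in the RefSeq table (Ryr2, Hrc and Pln), beside Casq2, a gene of calcium release that did not pass. RefSeq promoter windows were found for 6 of the 10 genes. The 250 bases before the transcription start are written 5′ to 3′ on the gene's strand (build GRCm38.p6), and capitals mark letters that match 1 of 6 motifs searched on both strands.
Ryr2 (chr13:12106946-12107195, - strand): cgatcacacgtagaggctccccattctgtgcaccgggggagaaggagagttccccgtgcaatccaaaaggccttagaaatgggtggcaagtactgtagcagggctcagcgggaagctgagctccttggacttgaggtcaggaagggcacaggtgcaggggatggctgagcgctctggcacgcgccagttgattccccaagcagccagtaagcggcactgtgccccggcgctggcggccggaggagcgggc
Hrc (chr7:45335019-45335268, + strand): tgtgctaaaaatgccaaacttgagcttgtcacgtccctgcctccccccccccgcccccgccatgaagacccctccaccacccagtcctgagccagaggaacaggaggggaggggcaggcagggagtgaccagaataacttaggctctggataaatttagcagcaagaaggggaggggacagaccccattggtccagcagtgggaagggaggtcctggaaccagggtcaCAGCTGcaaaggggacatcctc
Pln (chr10:53337436-53337685, + strand): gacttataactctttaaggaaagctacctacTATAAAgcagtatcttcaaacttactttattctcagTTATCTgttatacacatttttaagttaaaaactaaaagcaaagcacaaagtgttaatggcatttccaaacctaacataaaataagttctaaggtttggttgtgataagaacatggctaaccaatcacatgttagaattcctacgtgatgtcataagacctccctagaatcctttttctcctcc
Casq2 (chr3:102086165-102086414, + strand): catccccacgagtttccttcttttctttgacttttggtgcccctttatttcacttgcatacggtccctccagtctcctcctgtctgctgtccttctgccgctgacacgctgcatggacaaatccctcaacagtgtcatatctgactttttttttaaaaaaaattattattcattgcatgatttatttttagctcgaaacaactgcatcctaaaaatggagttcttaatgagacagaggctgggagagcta
The motifs were the TEAD site GGAATG, the GATA site AGATAA, the E-box CAGCTG, the TATA box (TATAAA), and the MEF2 and CArG box motifs. Hrc holds 1 E-box, which begins 22 bases before the start, and Pln holds a GATA match 183 bases and a TATAAA match 219 bases before its start. The MEF2 motif was searched only in a strict form of 10 letters, with nothing but A or T between CTA and TAG, and the CArG box with nothing but A or T between CC and GG, so looser forms were not counted. The windows of Ryr2 and Casq2 hold no match in these forms. Matches also occur in genes that did not pass and are not shown. Jph2 holds an E-box, 9 or 29 bases before the start depending on the start used. Slc8a1 holds a GATA match 68 bases before its start. Over all 32851 windows of this length, 13% hold the E-box, 9.99% the GATA site, 12.4% TATAAA, 12.6% the TEAD site, 0.508% the MEF2 motif and 1.47% the CArG box. None of the 4 windows shown holds the TEAD letters, which are those of the factors that pair with the Hippo effector YAP, and this says only that these letters are not in these windows. The MEF2, CArG, GATA and E-box motifs belong to factors of the heart and muscle gene programme.

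Levels from here on are CPM scaled by TMM (trimmed mean of M values), and the scales of the 12 TRAP libraries, of the 6 total RNA libraries and of the 12 infarcted hearts' libraries are separate. To compare genes with each other, levels were divided by the annotated exon length, which runs from 1.32 kb for Sln to 28.8 kb for Ryr2. This length merges the exons of all annotated transcripts of a gene, so it can exceed that of the RNA present. In sham control TRAP RNA, Atp2a2, the SERCA2 pump gene, had the highest level at 2426 ± 571 CPM per kb (SD, n = 3), followed by Hrc at 1348 ± 299 and Pln at 783 ± 127. Casq2 (363 ± 63.2) and Trdn (299 ± 102) were next, and theirs were the only neighbouring ranges that overlapped in this group. Jph2 stood at 144 ± 14.3, Ryr2 at 66.2 ± 29.2, Asph at 10.4 ± 0.728 and Slc8a1 at 0.428 ± 0.155 CPM per kb. The order was the same in sham Salv cKO, where Casq2 (446 ± 39.0) and Trdn (440.4 ± 72.0) overlapped, as did Jph2 (149.6 ± 14.0) and Ryr2 (141 ± 45.8). After infarction Atp2a2 still led, at 1737 ± 149 CPM per kb in control and 2040.4 ± 277 in Salv cKO, and Ryr2 stood at 33.4 ± 6.55 and 32.5 ± 6.75. Trdn and Jph2 then overlapped in both genotypes (176 ± 45.1 and 171 ± 35.7 in control, 142 ± 7.94 and 154 ± 19.2 in Salv cKO), and so did Hrc and Pln in Salv cKO (993 ± 107 and 924 ± 142). In total RNA of infarcted control hearts Pln came first at 1999 ± 336 CPM per kb on its own scale, with Atp2a2 at 1296 ± 227, Casq2 at 491 ± 47.4, Hrc at 265 ± 128 and Jph2 at 87.8 ± 30.6. There Ryr2 stood at 47.1 ± 11, above Trdn at 28.8 ± 2.59, and Asph (17.2 ± 1.42) and Slc8a1 (10.9 ± 3.42) came last; these last 4 did not overlap with each other.

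**Figure D1:**
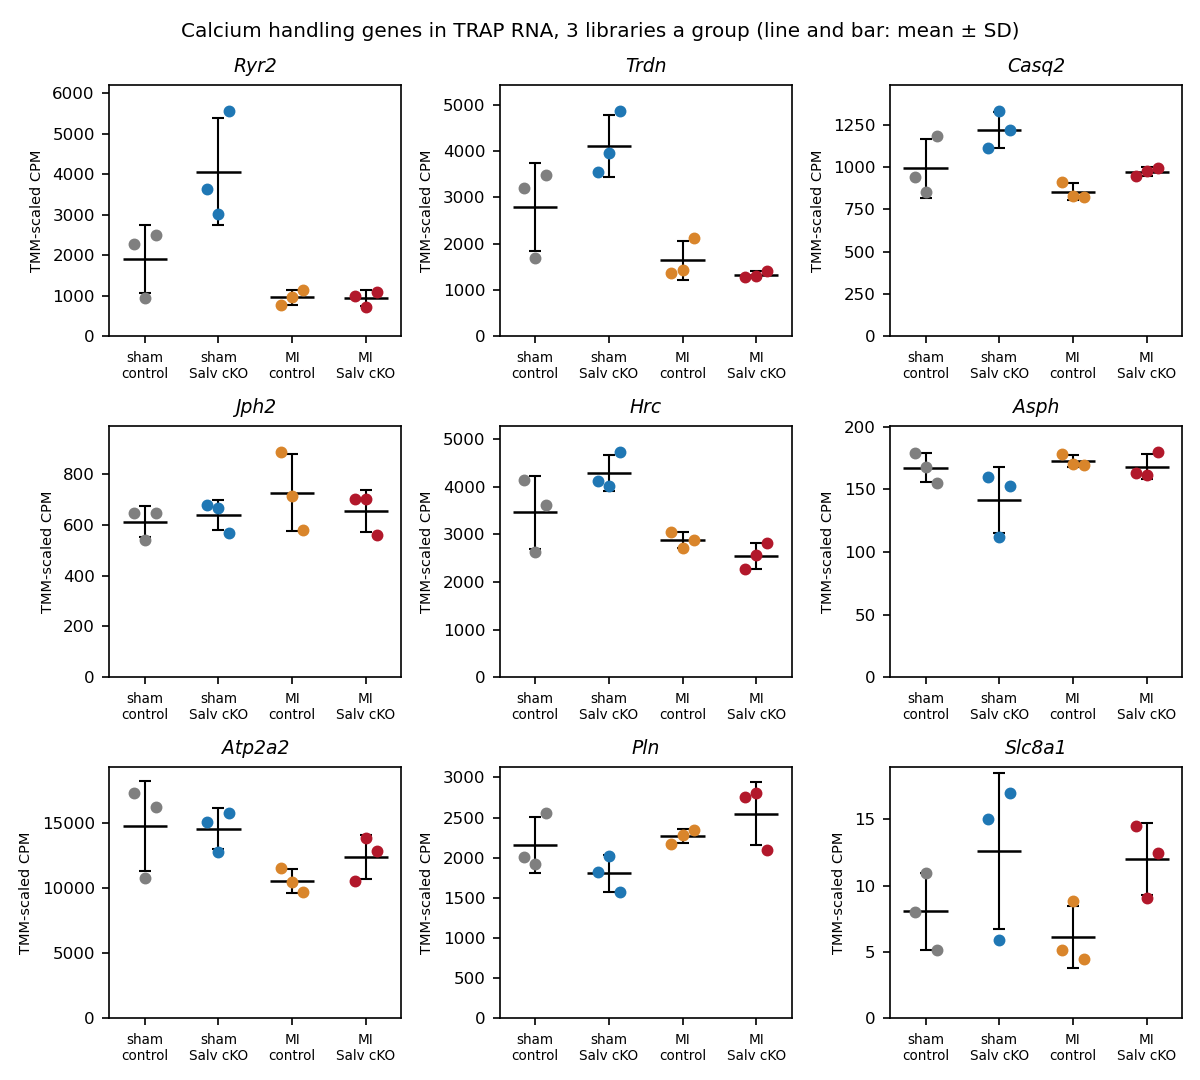
Levels of the 9 detected genes in the 12 TRAP libraries (vertical axes, TMM-scaled CPM from 0), in sham and infarcted (MI) hearts of control and Salv cKO mice. Points are libraries, and lines with bars are means ± SD of 3. For Ryr2 and Trdn all 6 infarcted libraries lie below all 3 sham Salv cKO libraries, and sham control library 2 lies among the infarcted ones.

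The comparison of infarcted with sham hearts in Salv cKO TRAP RNA asks which cardiomyocyte transcripts differed 6 weeks after ligation in the knockout. Of the 9 genes tested 4 passed an adjusted p of 0.05 by edgeR (Benjamini-Hochberg over all genes tested): Ryr2, Trdn and Hrc fell and Pln rose. Of all 11393 genes tested 18.2% passed, 7.56% as higher and 10.6% as lower. At an unadjusted p under 0.05 the counts were 5 of the 9 genes and 32.3% of all. The median log2 fold change was -0.23 over the 9 genes and 0.02 over all genes. The groups did not overlap for 6 of the 9 (35.6% of all genes): Ryr2, Trdn, Casq2 and Hrc were lower and Asph and Pln higher in every infarcted library.

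Ryr2 encodes the ryanodine receptor, the release channel itself, and lies on chromosome 13 from 11553102 to 12106945 on the minus strand (GENCODE M21, mm10). It stood at 3620.0, 3018 and 5543 CPM in sham Salv cKO libraries 1, 2 and 3 and at 990.4, 720.4 and 1098 CPM in infarcted Salv cKO (TRAP scale). Every infarcted library was below every sham library, and the library labelled sham Salv cKO 3 was the highest of all 12. The log2 fold change was -2.12 (SE 0.36, adjusted p = 0.00216). Without that library it was -1.82 (adjusted p = 0.00589), and without both libraries that hold Y chromosome counts -1.82 (adjusted p = 1.40e-05).

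Trdn encodes triadin, a membrane protein that ties the receptor to calsequestrin inside the reticulum (chromosome 10, 33080554 to 33476709, plus strand). Its levels were 3542, 3953 and 4859 CPM in sham and 1275, 1306 and 1416 CPM in infarcted Salv cKO TRAP RNA. The infarcted libraries lay close together, far below the sham ones, with a log2 fold change of -1.63 (SE 0.23, adjusted p = 0.000195) and -1.49 without the library labelled sham Salv cKO 3 (adjusted p = 0.00128).

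Hrc encodes the histidine-rich calcium-binding protein of the reticulum's lumen (chromosome 7, 45335290 to 45338974, plus strand). It stood at 4118, 4010.5 and 4719 CPM in sham and at 2266, 2559 and 2816 CPM in infarcted Salv cKO. All infarcted libraries were lower. Its log2 fold change was -0.75 (SE 0.17, adjusted p = 0.00390). Without the library labelled sham Salv cKO 3 it was -0.67 (adjusted p = 0.0270).

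The remaining genes of calcium release did not pass. Casq2, calsequestrin, the main calcium buffer of the lumen (chromosome 3, 102086415 to 102146514, plus strand), stood at 1116, 1329 and 1218 CPM in sham and 946.2, 979.8 and 996.7 CPM in infarcted libraries. These do not overlap, yet the log2 fold change of -0.33 (SE 0.15) had an adjusted p of 0.147. Jph2, junctophilin, which holds the reticulum close to the transverse tubule (chromosome 2, 163336242 to 163397993, minus strand), stood at 675.7, 665.9 and 568.2 CPM in sham and 701.2, 702.2 and 560.1 CPM in infarcted libraries, which overlap (log2 0.04, SE 0.17). Asph encodes an aspartyl beta-hydroxylase and, in other forms, junctin, a partner of triadin (chromosome 4, 9448069 to 9669344, minus strand). Its counts sum all forms and stood at 160.1, 111.5 and 152.9 CPM in sham and 162.7, 161.5 and 179.4 CPM in infarcted libraries (log2 0.25, SE 0.16, adjusted p = 0.319).

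Pln encodes phospholamban, the small inhibitor of SERCA (chromosome 10, 53337667 to 53345987, plus strand, inside Cep85l on the opposite strand). It stood at 1824, 2024 and 1569 CPM in sham and at 2752, 2799.7 and 2097 CPM in infarcted Salv cKO TRAP RNA. The groups did not overlap, though the highest sham and the lowest infarcted library were close. Pln had a log2 fold change of 0.50 (SE 0.16, adjusted p = 0.0388). It did not pass without infarcted Salv cKO library 1 or 2 (adjusted p = 0.134 and 0.143), sham Salv cKO library 1 (adjusted p = 0.0744), the library labelled sham Salv cKO 3 (adjusted p = 0.168) or both libraries with Y chromosome counts (log2 0.41, adjusted p = 0.128). Cep85l had 56 counts over the 12 TRAP libraries, and the counting's strand setting is not given in the sources.

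Atp2a2, the pump itself (chromosome 5, 122453513 to 122502225, minus strand), stood at 15075, 12766 and 15795 CPM in sham and 10538, 13807 and 12877 CPM in infarcted Salv cKO. The groups overlapped, and the log2 fold change was -0.23 (SE 0.17, adjusted p = 0.388). Slc8a1, the sodium-calcium exchanger NCX1 (chromosome 17, 81373105 to 81738377, minus strand), had only 18 to 131 counts in these 6 libraries and stood at 15.0, 5.94 and 17.0 CPM in sham and 14.5, 9.11 and 12.4 CPM in infarcted libraries. Its groups overlapped, and the 95% interval of its log2 fold change ran from -0.86 to 0.70.

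Other measured values were read in the same comparison, in which 7.56% of all genes passed as higher and 10.6% as lower. Of 10 cardiomyocyte markers 3 fell and 0 rose, none was at 0, and their summed level was 151420 to 170640 CPM in sham and 108470 to 126900 CPM in infarcted Salv cKO. The sum of the 8 fibroblast and matrix markers was 694.0 to 840.1 CPM in sham and 675.3 to 1357 CPM in infarcted libraries. These ranges overlap, and 1 of 8 was higher. The 8 endothelial markers, of which 1 was lower, summed to 572.4 to 759.6 CPM in sham and 308.1 to 433.2 CPM in infarcted libraries. None of the fibroblast or endothelial list was at 0. Of 9 leukocyte markers 1 was lower, and of 6 smooth muscle and mural markers tested 1 was higher. The sum of the 8 atrial markers, of which 1 was higher and 2 were lower, was 64.5 to 147.8 CPM in sham, with Bmp10 at 0, and 247.2 to 615.2 CPM in infarcted libraries. This sum includes Nppa, which the ventricle also expresses under load. None of the other atrial markers exceeded 77.8 CPM of the library total in any library. Mitochondrial genes held 0.383% to 0.532% of counts in sham and 0.269% to 0.346% in infarcted libraries, and the TMM factors were 0.858 to 0.923 and 1.10 to 1.14. Genes with an exon length of 16 kb or more had a median log2 fold change of -0.22 (240 genes), those of 2 to 4 kb had 0.07 and those under 2 kb had -0.15. With trends over exon length and GC content removed, the log2 fold changes were -1.86 for Ryr2, -1.50 for Trdn, -0.81 for Hrc and 0.49 for Pln, and all 4 passed. The part of these values in the results was not tested.

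**Figure D2:**
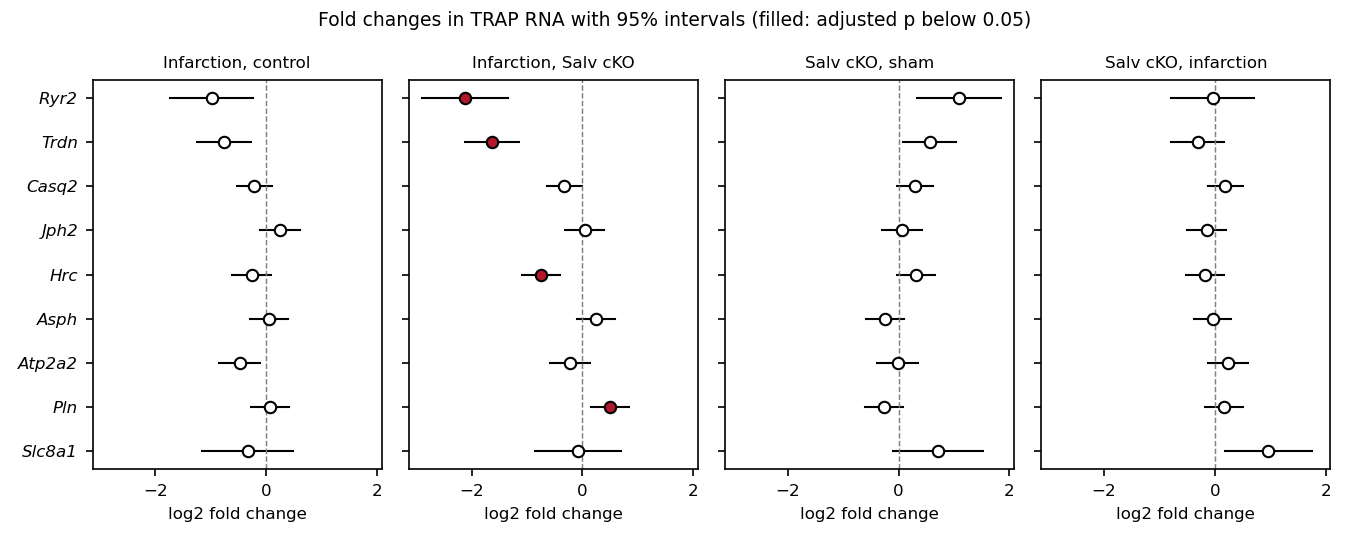
Log2 fold changes (horizontal axes) with 95% intervals of the 9 genes in 4 comparisons of TRAP RNA; filled points passed an adjusted p of 0.05 by edgeR. In the panel of infarction in Salv cKO, Ryr2 at -2.12, Trdn at -1.63, Hrc at -0.75 and Pln at 0.50 are filled, and in the other panels 0 of 9 are.

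The same surgery comparison in control TRAP RNA gave 0 of 9 genes past the threshold by edgeR, where 1.08% of all genes passed, with 3 of the 9 and 14.1% of all genes at an unadjusted p under 0.05. DESeq2 called 2 of the 9, Ryr2 and Trdn, and 4.1% of all genes. Ryr2 stood at 2281, 940.6 and 2494 CPM in sham control libraries 1, 2 and 3 and at 771.6, 961.6 and 1149 CPM in infarcted control. Sham control library 2 lay among the infarcted libraries and the other two sham libraries lay above them all. The log2 fold change was -0.99 (SE 0.34, adjusted p = 0.199). Without sham control library 2, which is also the sham control library with Y chromosome counts, it was -1.32 (adjusted p = 0.00211). Over single libraries left out it ran from -1.32 to -0.72, with an adjusted p of up to 0.518.

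For Trdn the sham control levels were 3199, 1703 and 3482 CPM and the infarcted ones 1374, 1433 and 2132 CPM. Again sham library 2 was the only one to fall within the infarcted range. Their log2 fold change was -0.76 (SE 0.23, adjusted p = 0.104), it was -1.03 without sham control library 2 (adjusted p = 0.00197), and it also passed without infarcted control library 3 (log2 -0.99, adjusted p = 0.0439). Atp2a2 stood at 17255, 10785 and 16215.5 CPM in sham and 11515, 10470.4 and 9705 CPM in infarcted control, with the same library of low value. Its log2 fold change was -0.48 (SE 0.17, adjusted p = 0.178) and -0.67 without that library (adjusted p = 0.0119). Without it 3 of 9 genes passed, where 5.19% of all genes did. Without both libraries with Y chromosome counts the same 3 passed, where 5.6% of all genes did. Without infarcted control library 1 or 2, or sham control library 1 or 3, 0 of 9 passed. At most 0.0495% of all genes passed there. Over single libraries left out the weakest fold changes were -0.55 for Trdn (adjusted p up to 0.389) and -0.36 for Atp2a2 (up to 0.506).

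The other 6 genes did not pass in control. Hrc stood at 4143, 2628 and 3607 CPM in sham and at 3047, 2719 and 2874 CPM after infarction (log2 -0.26, SE 0.17, adjusted p = 0.519, and -0.43, adjusted p = 0.132, without both libraries with Y chromosome counts). Pln had 2004, 1917 and 2561 CPM in sham and 2173, 2285 and 2341 CPM after infarction, a log2 fold change of 0.07 that turned to -0.015 without sham control library 2. The remaining fold changes were -0.22 for Casq2, 0.25 for Jph2, 0.05 for Asph and -0.34 for Slc8a1, and 0 of the 9 genes had groups that did not overlap (19.1% of all genes).

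Whether infarction differed in effect between the genotypes was tested by the interaction, in which 0 of 9 genes and 0 of all genes (0%) passed by edgeR, with 2 of 9 and 12.6% of all genes at an unadjusted p under 0.05. DESeq2 also called 0 of the 9, and 82 of all genes. The interaction of Ryr2 was -1.13 on the log2 scale (SE 0.48, adjusted p = 0.366), that of Trdn -0.86 (SE 0.32, adjusted p = 0.305) and that of Hrc -0.49 (SE 0.24, adjusted p = 0.399). Without both libraries with Y chromosome counts these were -0.51 for Ryr2 (SE 0.28, adjusted p = 0.487), -0.46 for Trdn (SE 0.26, adjusted p = 0.498) and -0.24 for Hrc (SE 0.23, adjusted p = 0.713), and that of Atp2a2 went from 0.25 to 0.50 (adjusted p = 0.411). The 2 surgery comparisons share no libraries, but the larger fall in Salv cKO was not shown to differ from that in control.

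**Figure D3:**
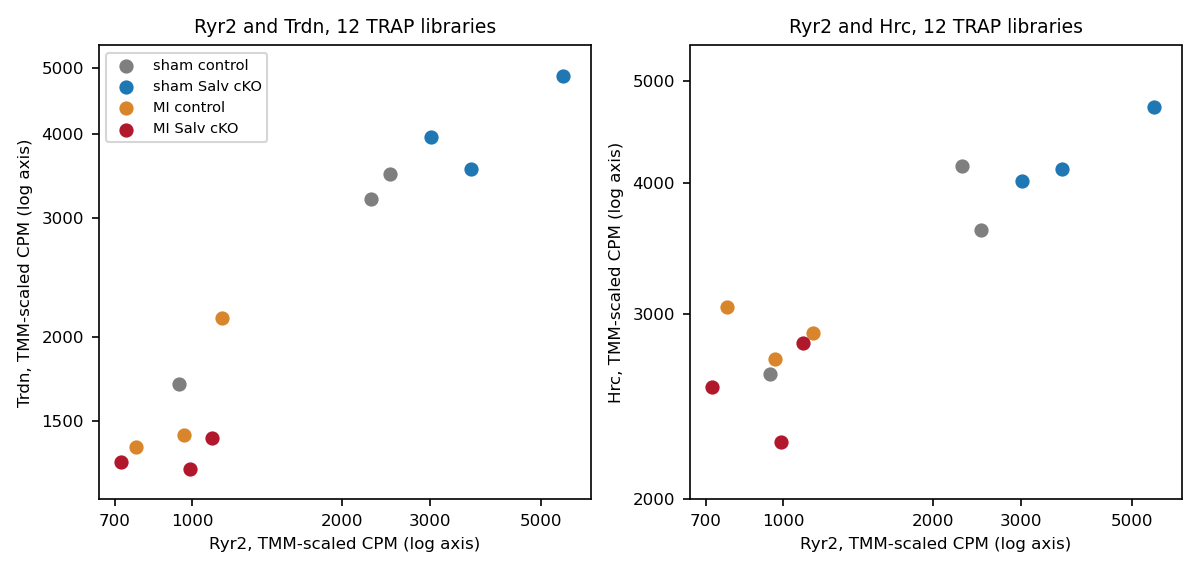
Levels of Trdn (left) and Hrc (right) against Ryr2 in the 12 TRAP libraries, in TMM-scaled CPM on log axes, coloured by group. Sham control library 2 lies among the 6 infarcted (MI) libraries for Ryr2 and Trdn, and the other 5 sham libraries lie above them on each axis.

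Genotype after sham surgery asks what the knockout changed without infarction, and in TRAP RNA 0 of the 9 genes passed by edgeR where 2.55% of all genes did, with 2 of 9 and 18.5% of all genes at an unadjusted p under 0.05. Ryr2 and Trdn were the 2 whose groups did not overlap (21% of all genes): the Salv cKO libraries, given above, were all higher than the control ones. The log2 fold change of Ryr2 was 1.09 (SE 0.35, adjusted p = 0.119). It passed with DESeq2 (adjusted p = 0.0109), but without both libraries that hold Y chromosome counts it was 0.47 (adjusted p = 0.316). For Trdn it was 0.56 (SE 0.23, adjusted p = 0.193), and 0.16 without both those libraries (adjusted p = 0.769).

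Hrc differed by 0.31 (SE 0.17) and Casq2 by 0.30 (SE 0.15) on the log2 scale in the same comparison, and by 0.06 and 0.19 without both those libraries. Casq2 stood at 943.0, 850.8 and 1186 CPM in sham control, which overlapped with Salv cKO. Slc8a1 had 8.02, 11 and 5.17 CPM in sham control and a log2 fold change of 0.71 (SE 0.39, adjusted p = 0.345). For Jph2 (0.06), Asph (-0.24), Atp2a2 (-0.02) and Pln (-0.26) the values of the genotypes overlapped too, and the 95% interval of Atp2a2 ran from -0.38 to 0.34. Without both libraries with Y chromosome counts Atp2a2 differed by -0.27 (SE 0.18, adjusted p = 0.508).

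Genotype after infarction asks what the knockout changed in the remodelled heart. In TRAP RNA 0 of 9 genes passed by edgeR and by DESeq2, where 0.334% of all genes did by edgeR, with 1 of 9 and 7.36% of all genes at an unadjusted p under 0.05. That gene was Slc8a1, which stood at 5.17, 8.83 and 4.48 CPM in control and 14.5, 9.11 and 12.4 CPM in Salv cKO. All Salv cKO libraries were higher, with a log2 fold change of 0.96 (SE 0.38, adjusted p = 0.557), from 27 to 131 counts a library. Casq2, at 911.8, 830.6 and 823.0 CPM in control, was the other of 2 genes whose groups did not overlap (14.6% of all genes) and differed by 0.19 (SE 0.15, adjusted p = 0.894).

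Ryr2 had a log2 fold change of -0.04 between infarcted genotypes with an interval of -0.79 to 0.71. For Trdn it was -0.31 (interval -0.78 to 0.17), for Hrc -0.18 (-0.52 to 0.17), for Atp2a2 0.23 (-0.13 to 0.60) and for Pln 0.17 (-0.17 to 0.51). Jph2 differed by -0.15 and Asph by -0.04. The control libraries of Jph2 stood at 883.5, 713.5 and 580.3 CPM and those of Asph at 177.8, 170.5 and 169.3 CPM.

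In whole-heart total RNA of infarcted hearts 0 of 9 genes differed by genotype by edgeR and by DESeq2, where 0.255% of 12945 genes passed by edgeR, with 1 of 9 and 13.8% of all genes at an unadjusted p under 0.05. Again it was Slc8a1, here in the other direction: 271.6, 143.4 and 199.4 CPM in control and 87.1, 129.4 and 143.6 CPM in Salv cKO. Salv cKO library 3 just exceeded control library 2, so the groups overlapped. The log2 fold change was -0.77 (SE 0.26, adjusted p = 0.255). With no filter on low counts it passed (log2 -0.84, adjusted p = 0.0148), and with trends over length and GC content removed it was -0.42 (adjusted p = 0.581).

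Trdn, Casq2 and Asph were lower in every Salv cKO library of total RNA (19.4% of all genes did not overlap). Trdn stood at 296.6, 258.6 and 251.6 CPM in control and 248.6, 197.6 and 232.1 CPM in Salv cKO (log2 -0.25, SE 0.19). Casq2 stood at 1439, 1197 and 1398 CPM and 1093, 1178 and 1126 CPM (log2 -0.25, SE 0.21). Asph stood at 251.9, 282.2 and 296.8 CPM and 235.8, 183.6 and 232.9 CPM (log2 -0.35, SE 0.19). None of the 3 passed, and in total RNA the median fold change of all genes ran from 0.34 at an exon length under 2 kb to -0.23 at 16 kb or more.

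Ryr2 (1459, 1003 and 1609.8 CPM in control), Hrc (623.6, 381.5 and 1032 CPM), Jph2 (290.9, 306.2 and 523.5 CPM), Atp2a2 (7907, 6488 and 9253 CPM) and Pln (6583, 4909 and 5054 CPM) overlapped between genotypes of total RNA. Their Salv cKO means were 1318 ± 138, 815.6 ± 39.1, 439.8 ± 45.6, 8309 ± 1845 and 5260.4 ± 1765 CPM (SD, n = 3). The largest of these 5 fold changes was 0.26 on the log2 scale, for Hrc (SE 0.30).

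TRAP against total RNA of infarcted hearts asks which transcripts were enriched with cardiomyocyte ribosomes. Of the 9 genes 4 were higher in TRAP RNA (Trdn, Hrc, Jph2 and Atp2a2) and 2 lower (Pln and Slc8a1) by edgeR, where 74.2% of 13267 genes passed (34.4% as higher, 39.9% as lower), so this share is near the background. For 5 of the 9 the fractions did not overlap, against 53.1% of all genes. At an unadjusted p under 0.05 it was 6 of 9 and 75.7% of all genes. The median of all genes was -0.15 on the log2 scale.

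Trdn stood at 161.3 to 243.0 CPM in the 6 total RNA libraries and 1668 to 2757 CPM in the 6 TRAP libraries (scale of the infarcted hearts). The lowest TRAP library was several times the highest total RNA library, with a log2 difference of 3.28 (SE 0.16, adjusted p = 3.22e-14). Hrc rose from 309.1 to 843.4 CPM in total to 2965 to 4133 CPM in TRAP RNA (log2 2.56, SE 0.19). Jph2 (238.2 to 428.0 and 720.9 to 1199 CPM, log2 1.46) and Atp2a2 (5058 to 7824 and 12551 to 18294 CPM, log2 1.19) were also separate.

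Slc8a1 went the other way, from 71.0 to 222.4 CPM in total RNA to 5.79 to 18.9 CPM in TRAP RNA. Every TRAP library was below every total RNA library (log2 -3.49, SE 0.21, adjusted p = 6.61e-12). Pln stood at 3005 to 5839 CPM in total and 2698 to 3710 CPM in TRAP RNA, which overlap (log2 -0.47, SE 0.17, adjusted p = 0.0167), and it did not pass without total RNA control library 1 (adjusted p = 0.0525) or infarcted Salv cKO TRAP library 3 (adjusted p = 0.0522). Ryr2 (log2 0.19, SE 0.16), Casq2 (0.26, SE 0.13) and Asph (0.17, SE 0.12) did not pass, Casq2 at an adjusted p of 0.0778 by edgeR and 0.0122 by DESeq2.

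This fold change moved with exon length over all genes: its median was 1.29 for genes under 2 kb and -1.07 for genes of 16 kb or more, a class that holds Ryr2, Asph and Slc8a1. With the trends over length and GC content removed, Ryr2 (log2 0.90, adjusted p = 1.19e-05) and Asph (0.92, adjusted p = 7.17e-07) passed as higher in TRAP RNA, and Pln turned to 0.27 (adjusted p = 0.125). Trdn (4.91), Hrc (1.97), Jph2 (1.11), Atp2a2 (1.58) and Slc8a1 (-2.20) kept their direction and passed.

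**Figure D4:**
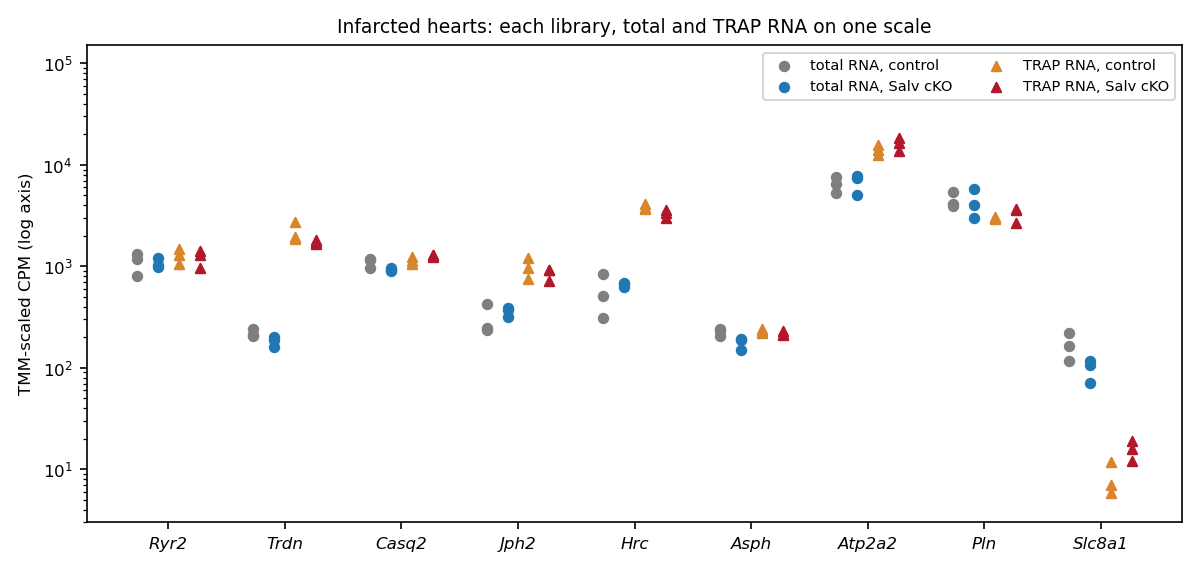
Each library of infarcted hearts on 1 scale (vertical axis, TMM-scaled CPM, log axis) for the 9 genes, with circles for total RNA and triangles for TRAP RNA. Trdn, Hrc, Jph2 and Atp2a2 lie higher in all TRAP libraries and Slc8a1 lies lower in all of them.

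In the interaction of genotype with RNA fraction 0 of 9 genes passed by edgeR, where 0.43% of all genes did, with 1 of 9 and 14.8% of all genes at an unadjusted p under 0.05. Slc8a1 had the largest value of the 9, 1.71 on the log2 scale (SE 0.40, adjusted p = 0.0588). It passed by DESeq2 (adjusted p = 0.00992), with no filter on low counts (adjusted p = 5.09e-05), without total RNA control library 2 (adjusted p = 0.0309), without total RNA Salv cKO library 3 (adjusted p = 0.0499) and without infarcted control TRAP library 2 (log2 2.07, adjusted p = 0.0480). With the trends over length and GC content removed it was 1.15 (adjusted p = 0.277). Nor did it pass with median-ratio size factors, with the replicate block or without any other single library. Its TRAP values rest on 27 to 131 counts a library. The other 8 genes lay between -0.47 and 0.41. An antisense gene, AC122399.1, overlaps Slc8a1 on the other strand and was not analysed here.

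The balance of pump and inhibitor was followed as Atp2a2 counts over Pln counts within a library, which needs no scaling between libraries and is not a ratio of molecules, since lengths differ. The ratio was 8.61, 5.62 and 6.33 in sham control TRAP RNA and 5.30, 4.58 and 4.15 in infarcted control. In Salv cKO it was 8.27, 6.31 and 10.1 after sham and 3.83, 4.93 and 6.14 after infarction. In both genotypes every infarcted library was lower, and the mean log2 ratio fell by 0.54 in control and by 0.73 in Salv cKO. By a two-sided exact permutation test each had p = 0.1, the smallest that 3 against 3 can give (adjusted p = 0.2 over 6 comparisons). Without the libraries with Y chromosome counts the falls were 0.67 and 0.57, so their order in size between the genotypes turned, and the difference between sham genotypes went from 0.26 to -0.03. Genotypes overlapped after sham (difference 0.26, exact p = 0.5), after infarction (0.07, exact p = 0.9) and in total RNA (0.17, exact p = 0.4). For whole-heart RNA after infarction the ratio was 1.2, 1.32 and 1.83 for the control libraries and 1.34, 1.68 and 1.85 for Salv cKO. These lay below all 6 infarcted TRAP libraries (log2 difference 1.65 for TRAP minus total, exact permutation p = 0.00216, adjusted p = 0.013). This p is the smallest that 6 against 6 can give. The test pooled the genotypes and took libraries as independent, though both fractions may come from the same hearts.

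**Figure D5:**
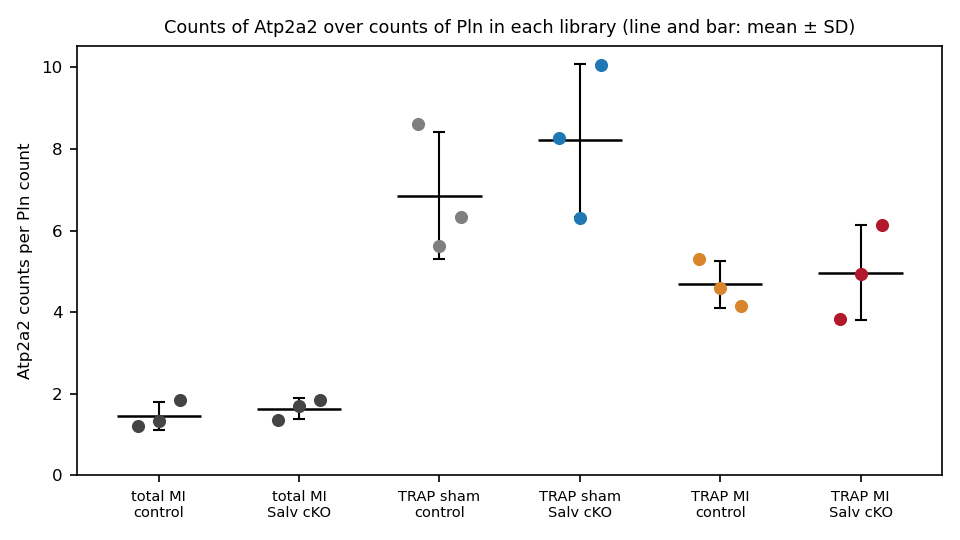
Counts of Atp2a2 per count of Pln in each of the 18 libraries (vertical axis, from 0), with lines and bars for the mean ± SD of 3 libraries a group, in sham and infarcted (MI) hearts. Infarcted TRAP libraries lie at 3.83 to 6.14 and sham ones at 5.62 to 10.1, and total RNA lies at 1.2 to 1.85.

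Sln encodes sarcolipin, a short inhibitor of SERCA known in the adult mouse heart mainly from the atria (chromosome 9, 53850164 to 53854560, plus strand). It was listed at 0 in all 18 libraries, and 3 counts, the limit that a count of 0 allows, correspond to 0.124 to 0.926 CPM of the library total. Such limits cover counting error only. Of 8 atrial markers read beside it, Myl7 had 1 to 13 counts a library of total RNA and 4 to 50 of TRAP RNA, and Bmp10 had 0 to 1 and 0 to 6. In the same order Sbk2 had 2 to 48 and 6 to 26, and Myl4 had 19 to 57 and 15 to 139. Kcna5 had 24 to 135 and 20 to 181, Dkk3 had 163 to 887 and 6 to 219, and Kcnj3 had 157 to 1458 and 41 to 450. Nppa, which the ventricle also expresses under load, had 6084 to 118476 counts in total and 60 to 4971 in TRAP RNA.

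A wider list of 68 genes around this cycle, of which 66 are in the files, was read in the same fits. Of all genes 18.2% passed after infarction in Salv cKO TRAP RNA, 7.56% as higher and 10.6% as lower. Of 58 listed genes tested there, 5 rose and 9 fell, 14 in all. The count was 7 without infarcted Salv cKO library 1, 8 without library 2 and 7 without the library labelled sham Salv cKO 3. Of all genes 9.67%, 12.3% and 10.7% passed in these fits. Without both libraries with Y chromosome counts 10 of 59 passed, where 12.9% of all genes did. Among the partners of uptake 3 of 10 rose and 2 fell. Ppp1ca (log2 2.73), Ppp1cb (0.80) and Ppp1cc (1.34) rose, which encode catalytic subunits of protein phosphatase 1, an enzyme that removes phosphate from phospholamban. Ppp1ca stood at 0 to 6.01 CPM in sham and 12.2 to 21.4 CPM in infarcted libraries. Atp2a3, the SERCA3 gene (log2 -1.88), and Strit1, listed as Gm34302, which encodes DWORF, a short peptide that activates SERCA (log2 -1.88), fell. Strit1 stood at 84.5 to 191.6 CPM in sham and 24.6 to 39.4 CPM after infarction.

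In the same comparison 7.56% of all genes passed as higher and 10.6% as lower. Beside these shares the counts of the short lists are not read as results about those lists. Among 21 partners of release 0 rose and 2 fell. Of these 2, Camk2a, a gene of a calcium-dependent protein kinase, had a log2 fold change of -1.75. Of 10 genes of the transverse tubule and dyad 2 rose, Cmya5 (0.89) and Rrad (0.59), the latter an inhibitor of the L-type calcium channel, and 1 fell, Tcap (-1.22). Of 7 genes of membrane pumps and store-operated entry 2 fell, the calcium pump gene Atp2b1 (-1.45) and the store sensor gene Stim1 (-1.36). Of 10 mitochondrial calcium genes 2 fell, Slc8b1 (-1.70) and Smdt1 (-0.51), and 0 rose. Ppp1cc, Tcap, Slc8b1 and Smdt1 were named after their values were seen, to complete these counts, and the genes of protein phosphatase 1 have near-identical relatives that could share reads. In control TRAP RNA only Rrad passed among the 58 by edgeR (log2 0.78, adjusted p = 0.0391), where 1.08% of all genes did. Before adjustment 14 were below 0.05 (14.1% of all genes), and DESeq2 called 5 (4.1% of all genes). The edgeR count was 7 without sham control library 2, where 5.19% of all genes passed. It was 0 without infarcted control library 1 or 2 or sham control library 1 or 3. For both genotype comparisons in TRAP RNA, the genotype comparison in total RNA and both interactions the count was 0 by edgeR. At an unadjusted p under 0.05 there were 11 (sham) and 8 (infarcted) in TRAP RNA and 13 in total RNA. Of all genes 18.5%, 7.36% and 13.8% were under 0.05 there. For the interaction with surgery there were 12 (12.6% of all genes), and for that with fraction 14 (14.8%). DESeq2 called 3, 2, 1, 1 and 4 in the same order, and 5.46%, 0.65%, 1.24%, 0.72% and 1.97% of all genes. Without both libraries with Y chromosome counts edgeR called 1 of 59 for genotype after sham and 7 for infarction in control. Of all genes 0.699% and 5.6% passed there.

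In TRAP against total RNA 24 of 59 were higher and 23 lower (74.2% of all genes passed). The higher ones included Strit1 (log2 3.91), Smdt1 of the mitochondrial calcium uniporter (3.57), Tcap (3.46) and Cav3 (2.81) of the transverse tubule and the calcium sensor gene S100a1 (2.43). Lower were the inositol trisphosphate receptor gene Itpr1 (-2.26), Ppp1cb (-2.12), Ppp1r3a (-2.03), the calcium pump gene Atp2b4 (-1.50) and the reticulum cation channel gene Tmem38b (-1.48).

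The genes whose log2 levels ran most like each member over the 12 TRAP libraries were named by Pearson's r, as a description of libraries that share surgery groups and depth. Larp7 (r = 0.98) and Kif1b (0.98) were nearest to Ryr2, Twistnb (0.99) and Rbm39 (0.98) were near to Trdn, and Dkc1 was among the 3 nearest to both; Larp7 and Twistnb have near copies that could share reads. Tnni3, cardiac troponin I, was nearest to Hrc (0.98), Fnip1 to Casq2 (0.95), Psap to Asph (0.97), Mrps12 to Jph2 (0.87) and Rnf168 to Atp2a2 (0.93). Prdx3 was nearest to Pln (0.95) and the nuclear noncoding RNA Neat1 to Slc8a1 (0.87).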

How the data were processed

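Ion Proton sequencing gave 18 libraries, for which the authors deposited whole-number counts per gene symbol, equal in the sample files and in the table of the series. STAR 2.5, the mm10 genome and DESeq2 are named per the submitters' processing notes; the counting tool, its annotation and its strand setting were not given in the sources used here. The test was edgeR's quasi-likelihood F test (edgeR 4.0.16 in R 4.3.3), robust and two-sided, after filterByExpr and TMM, and p-values were adjusted by Benjamini-Hochberg over all genes tested. The 12 TRAP libraries (11393 genes), the 6 total RNA libraries (12945 genes) and the 12 libraries of infarcted hearts (13267 genes) were fitted separately, without a replicate block. A gene with an adjusted p below 0.05 passes. Totals of 3240871 to 24135877 counts limit the precision of low genes. Exon length (all exons of a gene merged), GC content of the longest transcript (93.8% of symbols matched) and positions are from GENCODE M21. Promoters are from RefSeq (GRCm38.p6). DESeq2 1.42.0, median-ratio size factors, no low-count filter, a replicate block, removal of length and GC trends, the compared groups alone, omission of libraries with Y chromosome counts and of each library in turn were tried. The fits were tested on simulated data. From the wider list, up to 5 passing genes per direction with the largest fold change are named where the mean log2 CPM reaches 3, and predicted genes are left out. For likeness the 3 genes with the highest r were taken where the mean log2 CPM reaches 5. The members and lists were chosen with earlier results of these data known. Protein sequences were not used here. One gene of the wider list is not reported here by name.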

Additional observations from a re-analysis of the deposited data

How the results depend on the processing

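Ryr2, Trdn and Hrc passed after infarction in Salv cKO TRAP RNA under every alternative run, including each library left out. The number of the 9 genes past the threshold for infarction in control went from 0 to 2 with DESeq2, 1 with no filter, 2 with a replicate block, 3 without the libraries with Y chromosome counts, and 0 to 3 over libraries left out. For genotype after sham it went from 0 to 1 with DESeq2 and to 1 with a replicate block, for genotype in total RNA to 1 with no filter, and for the interaction of genotype and fraction to 1 with DESeq2 or no filter and 0 to 1 over libraries left out. The cause was not tested. Over all genes the count for infarction in control went from 123 to 467 with DESeq2, 566 with no filter, 408 with the block, 673 without the libraries with Y chromosome counts and 56 with length and GC trends removed, and that for infarction in Salv cKO from 2069 to 1099 without infarcted Salv cKO library 1 and 1295 without the library labelled sham Salv cKO 3. Without one library at a time, infarction in control called 0 to 628 of all genes. With DESeq2 the counts were 622 for genotype after sham (291 by edgeR), 74 after infarction (38), 160 in total RNA (33) and 262 for the interaction with fraction (57). With the replicate block Pln missed the threshold after infarction in Salv cKO (adjusted p = 0.0517), and Ryr2 passed after sham (adjusted p = 0.00751); in infarcted control Ryr2 and Trdn passed (adjusted p = 0.0227 and 0.0272), and it changed no other call of the 9 genes. Replicate numbers were not shown to pair libraries: residuals of same-numbered TRAP libraries correlated at -0.157 to 0.114, and 6 of 12 libraries correlated best with their own number.

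With length and GC trends removed the log2 values were 0.024 for Atp2a2 in sham genotype, 0.0043 for Slc8a1 in infarcted control, -0.044 for Jph2 and 0.17 for Slc8a1 after infarction in Salv cKO, 0.17 for Ryr2, 0.11 for Trdn and 0.0048 for Pln in total RNA genotype, 0.27 for Pln in TRAP against total, and -0.13 for Asph and -0.023 for Atp2a2 in the interaction with fraction. Without libraries with Y chromosome counts they were -0.015 for Pln in infarcted control, -0.032 for Jph2 and 0.20 for Slc8a1 after infarction in Salv cKO. The difference of the log2 ratio of Atp2a2 to Pln between sham genotypes was then -0.032, an alternative chosen after seeing the data. With no filter they were -0.0038 for Jph2 in sham genotype and 0.040 for Ryr2 in the interaction with fraction.

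Over libraries left out the ranges that crossed 0 were -0.17 to 0.12 for Ryr2 and -0.29 to 0.017 for Jph2 in infarcted genotype in TRAP RNA, -0.015 to 0.24 for Pln in infarcted control, -0.032 to 0.14 for Jph2 and -0.41 to 0.20 for Slc8a1 after infarction in Salv cKO, -0.078 to 0.61 for Slc8a1 in the interaction with surgery, and -0.030 to 0.13 for Jph2 and -0.21 to 0.10 for Atp2a2 in sham genotype. In total RNA genotype they were -0.22 to 0.097 for Ryr2, -0.020 to 0.70 for Hrc, -0.043 to 0.25 for Atp2a2 and -0.36 to 0.14 for Pln, and in the interaction with fraction -0.16 to 0.21 for Ryr2, -0.18 to 0.13 for Trdn and -0.039 to 0.30 for Atp2a2. Slc8a1 had the lowest depth in TRAP RNA, 18 to 131 counts a library, and the part of depth in its errors was not tested.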
